A study of Mus musculus with 11 samples.

Results

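The RNA of 7 genes for proteins of blood plasma was followed in mouse liver: the carriers albumin (Alb), transthyretin (Ttr) and transferrin (Trf), the acute phase proteins C-reactive protein (Crp) and serum amyloid A2 (Saa2), and 2 proteins of the plasma protease systems, plasminogen (Plg) and the serpin Serpina5. The members were taken by their gene symbol in the platform's table of spots, where they are 7 of 13406 genes with a symbol. Each has 1 spot, and all 7 were among the 3558 genes that held enough values to be tested. Of these, 3169 have a symbol and the rest are spots without one, each counted as a gene here and in every share of all genes. Probe sequences are not used here, so whether a member's spot also takes up RNA of a related gene was not checked.

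The series measured liver RNA of C57BL/6J mice on 2-colour arrays, 1 mouse per array. Control mice (4 arrays) ate a chow with 6.5% fat, 49% carbohydrate and 23% protein at 3.5 kcal/g for 10 weeks. High-fat mice (3 arrays used of 4) ate for the same 10 weeks a diet with 42.16% fat, 42.81% carbohydrate and 15.02% protein at 4.53 kcal/g, and fasted mice (3 arrays) ate that diet and went without food for the last 48 h. The diets thus differed in protein and carbohydrate as well as in fat, and no chow-fed mouse was fasted, so a fast on chow was not compared. The labels give no age for the mice.

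Albumin carries fatty acids, hormones and drugs in plasma and sets most of its osmotic pressure. Transthyretin carries thyroxine and, bound to the retinol-binding protein, vitamin A, and transferrin carries iron to cells. Hepatocytes make all 3 at a high rate. In an acute phase response, cytokines such as interleukin 6 and interleukin 1 act on hepatocytes through STAT3, NF-kB and C/EBP factors: serum amyloid A proteins rise steeply, C-reactive protein rises steeply in humans and little in mice, and albumin and transthyretin fall as so-called negative acute phase proteins. Plasminogen is the precursor of the fibrin-cleaving protease plasmin. Serpina5, the protein C inhibitor, blocks activated protein C and several other serine proteases. It is a plasma protein made by the liver in humans, whereas in adult mice its RNA is known mainly from the reproductive tract.

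Each spot gave the log ratio of liver RNA to a common mouse reference RNA, after the array's median was set to 0. The base of the logarithm is not stated and was taken as 2, so that 1 unit is a doubling relative to the median spot. The reference is shared by all arrays, so groups can be compared within a gene, but a ratio does not say which of several genes has more RNA. Arrays held 3864 to 5567 filled spots of 17280, and the 10 arrays used correlated with each other with Pearson r of 0.69 to 0.94. High-fat array 4 had r of -0.03 to 0.01 with them and was left out. On that array Alb stood at -0.04 and Plg at -0.03, against 1.71 to 3.11 for Alb and 0.70 to 3.44 for Plg on the other arrays. Ttr, at 0.30, also lay below its values on the other arrays. Crp, at 0.40, and Serpina5, at 0.74, lay within the range of the other arrays, and Trf and Saa2 were not filled. The spread of the ratios also differed: their median absolute deviation was 0.26 on high-fat array 1 and 0.37 and 0.39 on high-fat arrays 2 and 3. On control arrays it was 0.43 to 0.52, and the fasted arrays had 0.44 to 0.49. Each comparison was therefore made with centred arrays and again with arrays scaled to one spread. Hepatocyte genes other than the members (9 genes filled on all 10 arrays, among them Apoa1, Apoa2 and Apoe) had a mean ratio between 1.07 and 2.63 on these arrays, above the array median on each. In bulk liver RNA, fewer cells of a type and less RNA per cell cannot be told apart.

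Sequence just upstream of the start was available for 4 members that could be shown, 1 carrier, both acute phase genes and the serpin. It is given as a description, and a link between its letters and the changes that follow was not tested. Each line holds the 250 bases before the RefSeq gene start in GRCm38.p6, on the plus strand: Alb at chr5:90460620-90460869, Crp at chr1:172697806-172698055, Saa2 at chr7:46751583-46751832 and Serpina5 at chr12:104100863-104101112. Capitals mark matches, on either strand, to TTGCNNAA and TTACNNAA, which are forms of the site bound by C/EBP factors, to GTTAAT, a short form of an HNF1 site, and to TATAAA, the TATA box.
Alb: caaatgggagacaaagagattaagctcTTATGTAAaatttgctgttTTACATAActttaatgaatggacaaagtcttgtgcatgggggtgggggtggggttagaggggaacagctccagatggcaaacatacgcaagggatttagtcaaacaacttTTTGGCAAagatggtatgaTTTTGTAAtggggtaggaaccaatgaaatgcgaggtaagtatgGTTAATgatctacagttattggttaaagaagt
Crp: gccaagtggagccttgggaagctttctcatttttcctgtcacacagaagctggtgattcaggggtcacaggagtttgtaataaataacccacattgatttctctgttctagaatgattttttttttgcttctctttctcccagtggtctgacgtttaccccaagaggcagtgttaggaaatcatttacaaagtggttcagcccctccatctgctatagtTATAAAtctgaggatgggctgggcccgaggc
Saa2: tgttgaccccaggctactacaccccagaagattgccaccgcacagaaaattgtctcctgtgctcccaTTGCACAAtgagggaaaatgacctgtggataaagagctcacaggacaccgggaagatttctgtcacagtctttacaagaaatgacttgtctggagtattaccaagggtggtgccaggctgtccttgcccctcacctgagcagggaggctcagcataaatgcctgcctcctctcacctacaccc
Serpina5: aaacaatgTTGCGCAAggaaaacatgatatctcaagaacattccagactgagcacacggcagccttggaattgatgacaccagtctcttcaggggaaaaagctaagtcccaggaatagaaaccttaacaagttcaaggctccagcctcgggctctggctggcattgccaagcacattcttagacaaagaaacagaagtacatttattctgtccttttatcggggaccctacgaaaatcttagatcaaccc

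The Alb window held 3 matches to TTACNNAA, 1 to TTGCNNAA and 1 to GTTAAT, the last at -32 to -27 from the start. TTACNNAA occurs in 8.09% of 32841 such windows of mouse genes, TTGCNNAA in 9.57% and GTTAAT in 6.43%. Saa2 had 1 match to TTGCNNAA, at -183 to -176, and Serpina5 had 1, at -242 to -235. Crp had the TATA box, at -31 to -26, a motif of 12.4% of windows. No matches overlapped. TTCNNNGAA, the STAT site, and the NF-kB consensus, present in 7.02% and 3.90% of windows, were searched as well and these letters are not in the 4 windows shown. Such matches describe the letters and are not evidence of binding. The upstream windows of Saa1 and Saa2 are 94.8% identical (238 of 251 aligned positions), and 0 spots carry the name Saa1. Whether the Saa2 spot also takes up Saa1 RNA was not tested.

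The 3 carriers had ratios far above the array median in every group. On each of the 10 arrays the Alb ratio stood at or above percentile 97.6 of the filled spots, and that of Trf at or above 98.8. Alb stood at 3.11, 2.89, 2.47 and 2.93 on control arrays 1 to 4, at 2.74, 1.90 and 1.85 on high-fat arrays 1 to 3, and at 1.81, 1.71 and 2.71 on fasted arrays 1 to 3. In both diet groups 2 arrays lay below all control arrays while 1, high-fat array 1 and fasted array 3, lay inside the control range. The group means were 2.85 ± 0.27 (SD, n = 4), 2.16 ± 0.50 (n = 3) and 2.08 ± 0.55 (n = 3).

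Ttr, whose plasma protein has a short half-life, stood at 2.69, 2.99, 2.45 and 2.35 on the control arrays, at 2.64, 1.47 and 1.93 on the high-fat arrays and at 1.12, 1.35 and 1.25 on the fasted arrays. All fasted arrays lay below all arrays of both other groups. The means were 2.62 ± 0.28 (SD, n = 4), 2.01 ± 0.59 (n = 3) and 1.24 ± 0.12 (n = 3). In place among the filled spots of an array, Ttr was at percentile 97.5 to 99.8 on control and high-fat arrays and at 93.3 to 95.5 on fasted arrays.

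Trf stood at 2.79, 3.23, 2.52 and 3.00 on the control arrays, at 2.80, 2.00 and 2.07 on the high-fat arrays and at 2.28, 2.42 and 2.50 on the fasted arrays. The fasted arrays all lay just under the lowest control array, and high-fat array 1 lay again among the controls. The means were 2.885 ± 0.30 (SD, n = 4), 2.29 ± 0.44 (n = 3) and 2.40 ± 0.11 (n = 3). Over the 10 arrays the carriers varied together, with Pearson r of 0.83 for Alb and Trf, 0.75 for Ttr and Trf and 0.73 for Alb and Ttr, values that also carry whatever the 3 spots share on an array.

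**Figure D1:**
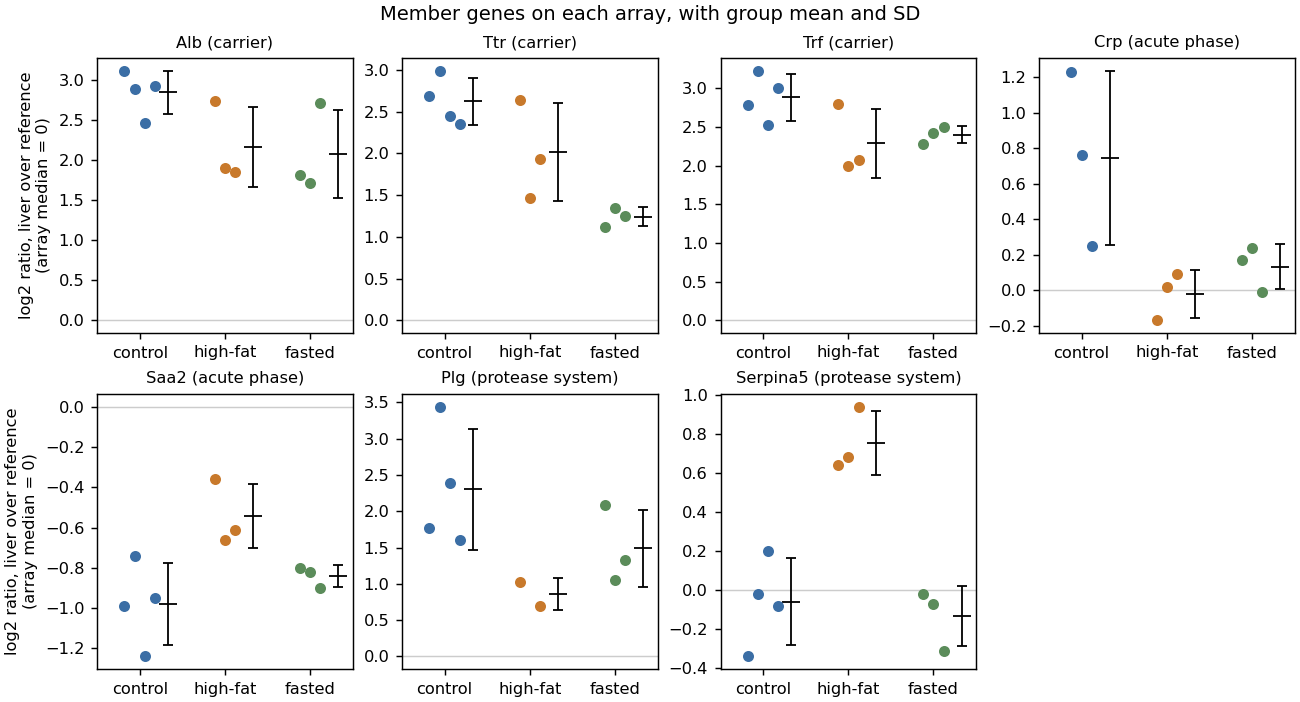
Centred log2 ratio of liver over reference (vertical axis, with its own range in each panel) for the 7 genes on 4 control, 3 high-fat and 3 fasted arrays. Points are arrays and the bars are group mean and SD. Ttr is lowest on the fasted arrays, at 1.12 to 1.35, and Serpina5 is highest on the high-fat arrays, at 0.64 to 0.94; Crp has no value on control array 1 and Plg none on high-fat array 2.

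The acute phase pair did not go one way. Crp stood at 1.23, 0.76 and 0.25 on control arrays 2 to 4 and was not filled on control array 1, against -0.17, 0.02 and 0.09 on the high-fat arrays and 0.17, 0.24 and -0.01 on the fasted arrays. All 6 arrays of the mice on the high-fat diet, fasted or not, lay below all 3 control values, by as little as 0.01 between fasted array 2 and control array 4. The control values were widely spread, with a mean of 0.75 ± 0.49 (SD, n = 3), against -0.02 ± 0.13 (n = 3) and 0.13 ± 0.13 (n = 3).

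Saa2 lay below the array median throughout. It stood at -0.99, -0.74, -1.24 and -0.95 on the control arrays, at -0.36, -0.66 and -0.61 on the high-fat arrays and at -0.80, -0.82 and -0.90 on the fasted arrays. The high-fat arrays were the highest of the 3 groups without overlap, and the fasted arrays lay within the control range. The means were -0.98 ± 0.21 (SD, n = 4), -0.54 ± 0.16 (n = 3) and -0.84 ± 0.05 (n = 3).

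In the protease pair, Plg had the widest spread of all members. It stood at 1.77, 3.44, 2.39 and 1.60 on the control arrays, at 1.02 and 0.70 on high-fat arrays 1 and 3 and was not filled on high-fat array 2, and at 2.08, 1.05 and 1.33 on the fasted arrays. The 2 high-fat values were the lowest of all, and the fasted arrays reached into the control range. The means were 2.30 ± 0.83 (SD, n = 4), 0.86 ± 0.23 (n = 2) and 1.49 ± 0.53 (n = 3).

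Serpina5 stood at -0.34, -0.02, 0.20 and -0.08 on the control arrays, at 0.64, 0.68 and 0.94 on the high-fat arrays and at -0.02, -0.07 and -0.31 on the fasted arrays. All high-fat arrays lay above all others, and the control and fasted arrays covered much the same range. The means were -0.06 ± 0.22 (SD, n = 4), 0.75 ± 0.16 (n = 3) and -0.13 ± 0.16 (n = 3). Its place among the filled spots moved from percentile 28.8 to 60.5 on control arrays to 88.3 to 92.6 on high-fat arrays and was 32.6 to 49.0 on fasted arrays.

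The first comparison, high-fat against control, asks what 10 weeks of the diet did in fed mice. Serpina5 rose 1.76-fold, a log2 change of 0.81 ± 0.15 (SE), with an adjusted p of 0.0172 by limma over all 3558 genes. It was the 1 member of 7 that passed the threshold of 0.05, where 4.92% of all genes passed and 2.95% rose. With arrays scaled to one spread it rose by 1.01 (adjusted p = 0.0114). It remained called with each control or fasted array left out in turn and without high-fat array 1, and missed the threshold without high-fat array 2 (adjusted p = 0.0592) or high-fat array 3 (0.0567), and when only control and high-fat arrays were fitted (0.0555).

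The 3 carriers all had lower means on the diet with centred arrays, and none passed. The change was -0.69 ± 0.27 (SE, adjusted p = 0.145) for Alb, -0.61 ± 0.24 (SE, adjusted p = 0.143) for Ttr and -0.595 ± 0.21 (SE, adjusted p = 0.108) for Trf. Their median was -0.61, beside a median of 0.079 over all genes tested, of which 39.5% were lower. When arrays were scaled to one spread the sign turned, to 0.28, 0.32 and 0.42, and quantile normalisation gave -0.19, 0.060 and -0.074.

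High-fat array 1 was the array with the smallest spread. After scaling its carriers stood at 4.46 for Alb, 4.29 for Ttr and 4.55 for Trf, against 1.68 to 2.29 on the other 2 high-fat arrays and 2.07 to 3.06 on the control arrays. Without high-fat array 1, in alternatives added after the values were seen, the scaled changes were -0.53, -0.51 and -0.37 and the quantile-normalised changes -0.68, -0.38 and -0.55 for Alb, Ttr and Trf. With centred arrays and without it, Ttr and Trf were called lower, by -0.92 and -0.85, each with an adjusted p of 0.0368. Without high-fat array 2 they had -0.335 (adjusted p = 0.453) and -0.45 (0.320). With scaled arrays the carriers' direction on the diet was thus opposite with and without high-fat array 1. Scaling without another array was not run, so whether array 1 alone made the turn was not tested.

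**Figure D2:**
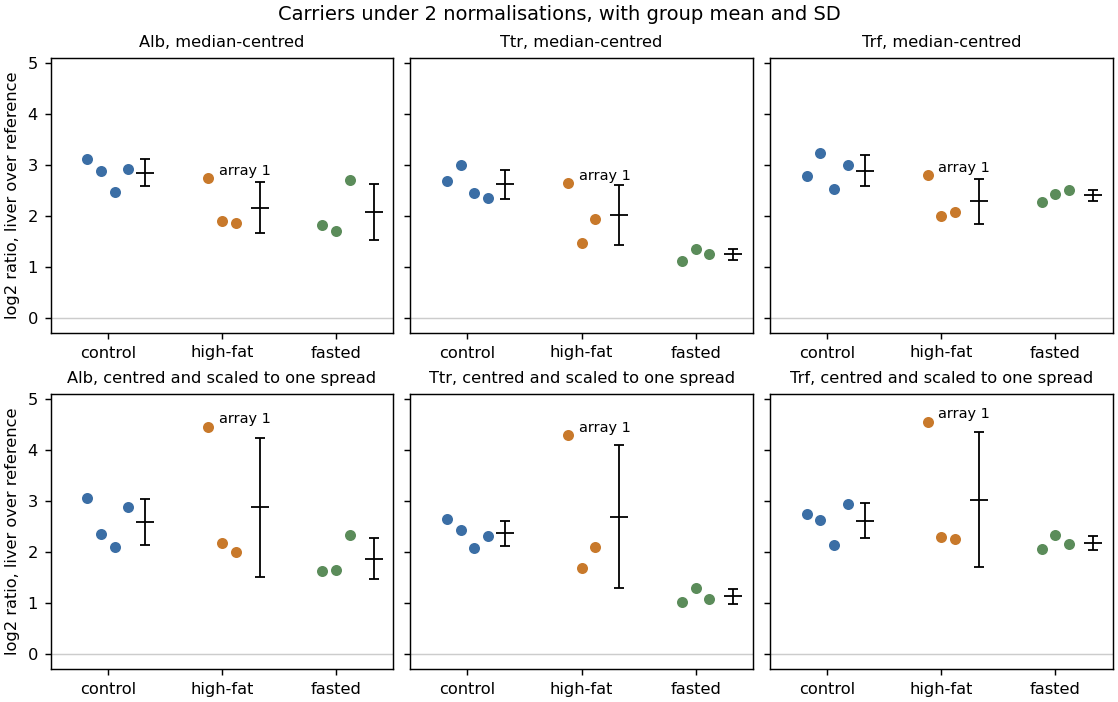
Log2 ratio of liver over reference for Alb, Ttr and Trf on each array, centred on the array median (upper row) and also scaled to one spread (lower row). Points are arrays, bars are group mean and SD, and the label marks high-fat array 1, which moves from 2.64 to 2.80 when centred to 4.29 to 4.55 when scaled.

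The acute phase and protease genes other than Serpina5 had changes in both directions between high-fat and control. Crp had a change of -0.77 ± 0.22 (SE, adjusted p = 0.0656) and Plg of -1.44 ± 0.45 (SE, adjusted p = 0.0810), while Saa2 had 0.44 ± 0.14 (SE, adjusted p = 0.0827). None of these 3 passed, although their groups did not overlap. With Serpina5, the groups did not overlap for 4 of the 7 members, beside 25.4% of all genes. Scaling left Crp at -0.68 and reduced Saa2 to 0.22 and Plg to -0.82, and the groups then overlapped for Saa2 and Plg. Crp passed without control array 4, its lowest control value, with a change of -1.015 and an adjusted p of 0.0196, and had -0.525 (0.108) without control array 2, its highest. With centred arrays the 4 acute phase and protease genes had a median of -0.165, with values from -1.44 to 0.81. The 3 carriers lay between -0.69 and -0.595. With scaled arrays the order of the medians turned, to -0.23 for the 4 genes (-0.82 to 1.01) and 0.32 for the carriers (0.28 to 0.42).

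The second comparison, fasted against high-fat, sets a 48 h fast against continued feeding on the same diet. Serpina5 fell 1.85-fold, by 0.89 ± 0.16 (SE) on the log2 scale, with an adjusted p of 0.0461 by limma. In this comparison 0.365% of all genes passed, and 0.281% fell. With scaled arrays Serpina5 fell by 1.06 (adjusted p = 0.0177). The call was lost without any 1 of the high-fat or fasted arrays, with adjusted p of 0.0968 to 0.167, and without control array 4 (0.0545). It was also lost with values as deposited (0.188), with all 11 arrays (0.0597) and with the replicate number as a block (0.100). This comparison uses the same 3 high-fat arrays as the first with the opposite sign, so the rise and the fall of Serpina5 are not independent observations.

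Among the carriers only Ttr was lower on every fasted array than on every high-fat array, with a change of -0.77 ± 0.26 (SE, adjusted p = 0.207) and of -1.56 with scaled arrays. Alb had -0.087 ± 0.29 (SE) and Trf 0.11 ± 0.22 (SE), with adjusted p of 0.916 and 0.854. With scaled arrays Alb had -1.01 and Trf -0.85. Without high-fat array 1 the scaled change was -0.23 for Alb, -0.092 for Trf and -0.80 for Ttr, and with centred arrays it was 0.20, 0.365 and -0.46. Within an array, which sets the array's own centring aside, Ttr minus Trf was -0.265 ± 0.27 (SD, n = 4) in control, -0.28 ± 0.22 (n = 3) in high-fat and -1.16 ± 0.09 (n = 3) in fasted livers. It lay between -1.25 and -1.07 on the fasted arrays and at or above -0.65 on all others. Ttr minus Alb was -0.23, -0.15 and -0.84 in the same order, with fasted values from -1.46 to -0.36 that overlapped the other groups. These differences were not tested and show unequal change only.

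The remaining members had small or uncertain changes with the fast. Saa2 had -0.30 ± 0.15 (SE, adjusted p = 0.371), with no overlap between the groups, and -0.094 with scaled arrays. Plg had 0.63 ± 0.47 (SE, adjusted p = 0.544), from 2 high-fat values, and 0.13 with scaled arrays. Crp had 0.15 ± 0.22 (SE, adjusted p = 0.768). The groups did not overlap for 4 members, Ttr, Saa2, Plg and Serpina5, beside 28.8% of all genes. With scaled arrays the groups overlapped for Saa2 and Plg.

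The third comparison, fasted against control, joins diet and fast. Ttr fell 2.60-fold, by 1.38 ± 0.24 (SE) on the log2 scale, with an adjusted p of 0.0216 by limma, and was the 1 member that passed, where 3.2% of all genes passed and 1.04% fell. The fall was 1.24 with scaled arrays and 1.14 with quantile normalisation, where it did not pass, with adjusted p of 0.239 and 0.0511. Without high-fat array 1, in alternatives added after the values were seen, both settings called it, with adjusted p of 0.0104 and 0.00461. That array belongs to neither group compared. It enters through the shared estimate of the spread, the choice of genes tested and the normalisation itself. With centred arrays the call of Ttr was also lost without fasted array 1 (adjusted p = 0.0754) or fasted array 2 (0.0713) and with all 11 arrays (0.124).

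The other carriers lay lower after diet and fast without passing. Alb had -0.77 ± 0.27 (SE, adjusted p = 0.137) and Trf -0.485 ± 0.21 (SE, adjusted p = 0.220), and scaling left them at -0.72 and -0.43. All 3 carriers were lower with centred, scaled and quantile-normalised arrays and with values as deposited, with a median of -0.77 beside 0.015 over all genes, of which 47.9% were lower. High-fat arrays do not enter these differences with centred arrays, but they share in the estimate of the spread and in the choice of genes tested. With centred arrays Trf was lower on each fasted array than on each control array. With scaled arrays the groups overlapped, at 2.05 to 2.33 for fasted and 2.13 to 2.95 for control.

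Of the other members, Crp had -0.61 ± 0.22 (SE, adjusted p = 0.139), Plg -0.81 ± 0.39 (SE, adjusted p = 0.275), Saa2 0.14 ± 0.14 (SE, adjusted p = 0.613) and Serpina5 -0.073 ± 0.15 (SE, adjusted p = 0.814). Crp passed without control array 4, at -0.86 with an adjusted p of 0.0287, and had -0.37 (0.298) without control array 2. With centred arrays the groups did not overlap for Ttr, Trf and Crp, 3 of 7 members, beside 22.2% of all genes.

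**Figure D3:**
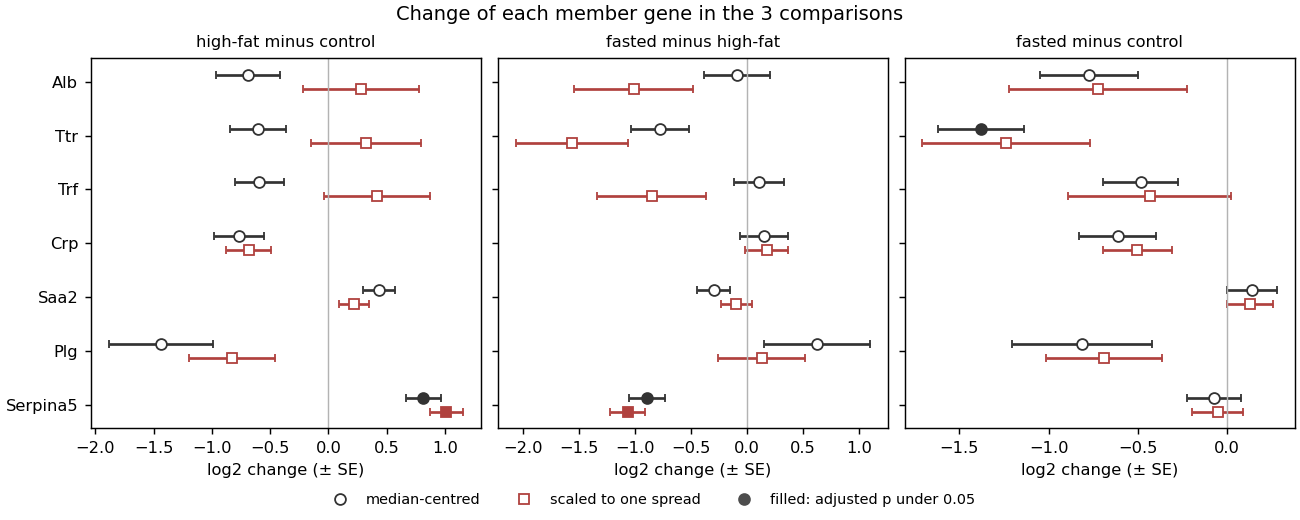
Log2 change of each gene in the 3 comparisons, with SE, for centred arrays (circles) and arrays scaled to one spread (squares). Filled symbols passed an adjusted p of 0.05: Serpina5 between high-fat and control (0.81) and between fasted and high-fat (-0.89) under both normalisations, and Ttr between fasted and control (-1.38) with centred arrays.

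Genes with a pattern most like that of a member were sought among 2016 named genes filled on all 10 arrays, by Pearson r over the arrays and as a description. For Alb they were Nicn1 (r of 0.98), Cfap97d1 (0.90) and Mfsd8 (0.89). For Ttr they were Resp18 (0.94), Taf1c (0.94) and Zw10 (0.89). For Trf they were Mup3 (0.91), a major urinary protein that the liver secretes, Tcam1 (0.90) and Fshb (0.89). For Saa2 they were Runx3 (0.93), Bmp4 (0.92) and Il6st (0.87), the signal-transducing subunit of the interleukin 6 receptor. For Serpina5 they were Lurap1l (0.95), Mtmr3 (0.93) and Plxna1 (0.91). Most of these genes are not known as plasma proteins. These r are for centred arrays. With arrays scaled to one spread, r fell to 0.72 for Runx3, 0.70 for Bmp4, 0.72 for Lurap1l, 0.69 for Taf1c and 0.71 for Tcam1. For the other genes named it was at or above 0.83.

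The wider group of plasma carriers and transport proteins, 28 genes of which 12 could be tested and 3 are members, had 9 of 12 genes lower on the diet. By limma none passed between high-fat and control (5 at an unadjusted p under 0.05), nor with the fast (2). Over all genes tested, 25.2% were under that p for the diet, 14.6% for the fast and 20.4% for both joined. The carriers' median change was -0.54, against 0.19 with scaled arrays. Selenop, the selenium carrier of plasma, had -0.98 (adjusted p = 0.0693, no overlap) and -0.44 with scaled arrays, and afamin (Afm), a vitamin E-binding relative of albumin, had -0.795 (adjusted p = 0.176). With the fast the median was 0.076 (-0.34 with scaled arrays), and Selenop had 0.68 (adjusted p = 0.273) and the corticosteroid-binding globulin Serpina6 0.30 (adjusted p = 0.392). Between fasted and control the median was -0.435 (-0.37 with scaled arrays), Ttr alone was called, and Afm had -0.96 (adjusted p = 0.149).

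Of 33 acute phase proteins 10 could be tested, Crp and Saa2 among them, and by limma none passed in any comparison (3, 0 and 1 at an unadjusted p under 0.05). The medians were -0.29, 0.015 and -0.23 between high-fat and control, fasted and high-fat, and fasted and control, and 0.010, -0.052 and -0.17 with scaled arrays. Metallothionein 2 (Mt2), a metal-binding protein induced in the acute phase, had 0.515 on the diet (adjusted p = 0.180). Haptoglobin (Hp), which binds free haemoglobin, had -0.59 with the fast (adjusted p = 0.491) and -0.67 between fasted and control (adjusted p = 0.323), and fetuin A (Ahsg) had 0.24 with the fast (adjusted p = 0.678). Ceruloplasmin (Cp), the copper-carrying ferroxidase, had -0.385 between fasted and control (adjusted p = 0.499). Hp, Cp, Ahsg and hemopexin (Hpx) are counted among the plasma carriers as well.

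Among 45 genes of coagulation and fibrinolysis 8 could be tested. Serpina5 was the 1 gene called, higher on the diet and lower with the fast, and by limma none passed between fasted and control (0 at an unadjusted p under 0.05). The medians were -0.41, 0.25 and -0.12 in the 3 comparisons, and -0.11, 0.057 and -0.076 with scaled arrays. Vitronectin (Vtn), an adhesive plasma protein that binds the plasminogen activator inhibitor, had -1.03 on the diet (adjusted p = 0.0827) and 1.01 with the fast (adjusted p = 0.227), with no overlap in either. Factor IX (F9) had 0.55 with the fast (adjusted p = 0.0910) and 0.25 between fasted and control (adjusted p = 0.250). Of 42 serpins 4 could be tested, and Serpina5 was again the 1 called, with none between fasted and control (2 at an unadjusted p under 0.05). Serpina9 had 0.22 on the diet (adjusted p = 0.524) and 0.47 between fasted and control (adjusted p = 0.205), and the C1 inhibitor Serping1 had -0.70 there (adjusted p = 0.368). The serpin medians were 0.12, -0.050 and 0.13.

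Of 39 complement genes 5 could be tested and by limma none passed (2, 0 and 0 at an unadjusted p under 0.05), with medians of -0.22, -0.175 and -0.25. C1qc, a chain of the C1q recognition molecule made mainly by macrophages, had 0.505 on the diet (adjusted p = 0.0908), the mannose-binding lectin Mbl1 -0.37 (adjusted p = 0.144), and the decay-accelerating factor Cd55 -0.40 between fasted and control (adjusted p = 0.286). Of 27 genes of iron handling 7 could be tested, Trf among them, and by limma none passed (2, 1 and 2 at an unadjusted p under 0.05). Their medians were -0.48, 0.11 and -0.385, and 0.13, -0.12 and -0.30 with scaled arrays. Trf, Hp, Hpx and Cp are in the wider group of plasma carriers too, so the 2 groups are not separate. Cybrd1, a ferric reductase, had -0.64 on the diet (adjusted p = 0.0642), the transferrin receptor Tfr2, an iron sensor of hepatocytes, had 0.93 with the fast (adjusted p = 0.369), and Bmp6, which induces the iron hormone hepcidin, had 0.47 between fasted and control (adjusted p = 0.222).

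Upstream of the secreted proteins, 8 of 45 receptors, signal carriers and transcription factors of the acute phase and of hepatocytes could be tested and by limma none passed (2, 1 and 1 at an unadjusted p under 0.05), with medians of 0.18, -0.12 and 0.060. Il6st had 0.53 on the diet (adjusted p = 0.0724, no overlap) and was called with scaled arrays at 0.80 (adjusted p = 0.0241). The tumour necrosis factor receptor Tnfrsf1a had 0.39 on the diet (adjusted p = 0.168). C/EBP beta (Cebpb) had 0.61 between fasted and control (adjusted p = 0.184), and C/EBP delta (Cebpd) had -0.35 with the fast (adjusted p = 0.326). In the secretory pathway, which folds and carries plasma proteins, 20 of 65 genes could be tested, by limma none passed (5, 5 and 3 at an unadjusted p under 0.05), and the medians were 0.115, -0.18 and -0.14. The COPII coat protein Sec23b had 0.50 on the diet (adjusted p = 0.0870) and -0.64 with the fast (adjusted p = 0.111). Rpn2, a subunit of the oligosaccharyltransferase, had 0.315 (adjusted p = 0.241) and -0.67 (adjusted p = 0.111) in these comparisons. With scaled arrays Rpn2 was called in both, at 0.91 and -1.23. The protein disulfide isomerase P4hb had 1.66 between fasted and control (adjusted p = 0.182).

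**Figure D4:**
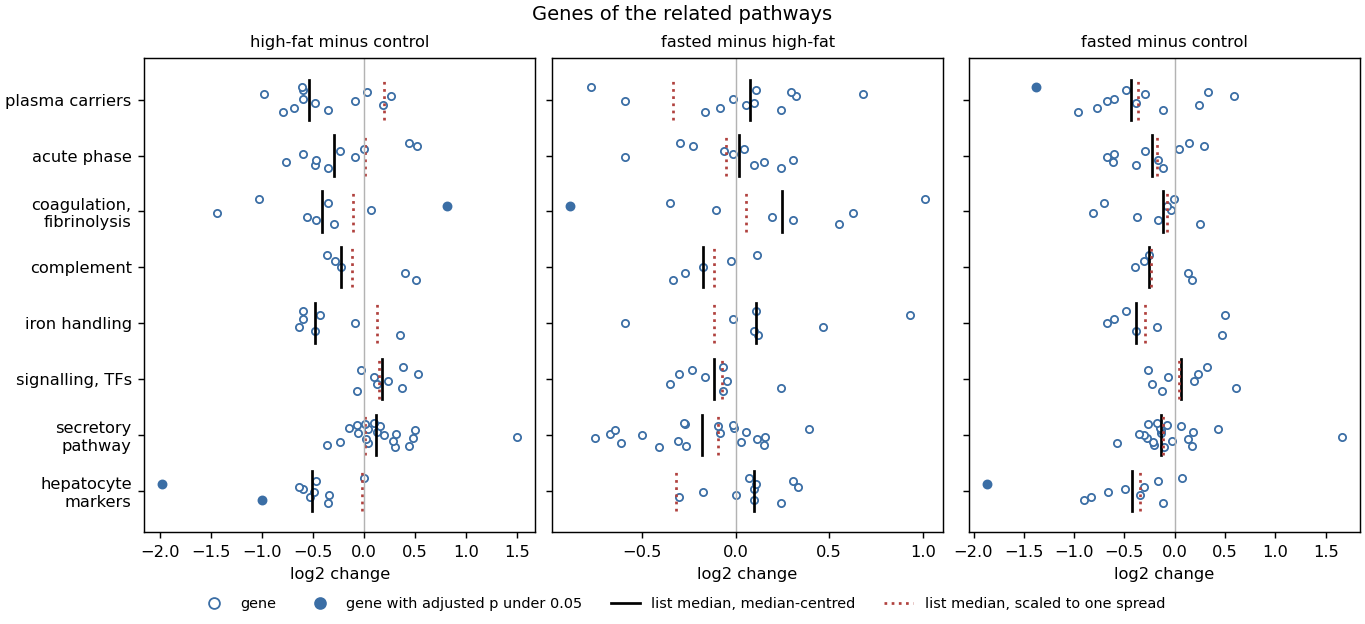
Log2 change of each tested gene of 8 gene groups (open circles; filled where the adjusted p was under 0.05) in the 3 comparisons with centred arrays. Solid lines are group medians with centred arrays and dotted lines with arrays scaled to one spread; for the carriers the median on the diet moves from -0.54 to 0.19 and for the other hepatocyte genes from -0.51 to -0.019.

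Hepatocyte genes other than the members were lower on the diet too with centred arrays. Of 25 such genes 10 could be tested, all 10 were lower on the diet than in control, and 2 fell, beside 1.97% of all genes. Ahsg and the fibrinogen chain Fgb among these 10 also stand in groups described above. Cyp3a11, a drug-metabolising P450 enzyme, fell by 1.98 (adjusted p = 0.0253). Apoa1, the main protein of high-density lipoprotein, fell by 1.005 (adjusted p = 0.0480), and had -0.43 with scaled arrays, where it was not called. Their median was -0.51 on the diet, 0.098 with the fast and -0.42 between fasted and control, where Cyp3a11 fell by 1.87 (adjusted p = 0.0336), and -0.019, -0.32 and -0.35 with scaled arrays. The mean ratio of the 9 filled on all arrays was 1.32 to 2.63 on control arrays, 1.07 to 1.24 on high-fat and 1.11 to 1.24 on fasted arrays, so that all control arrays lay above all others. The part of this shared shift in the carriers' values was not tested.

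Markers of other liver cells were mostly not filled. Of 30 leukocyte and Kupffer cell genes 4 could be tested and by limma none passed (1, 1 and 2 at an unadjusted p under 0.05), with medians of 0.0020, 0.097 and 0.059. The members differed in direction. S100a9, a calcium-binding protein of neutrophils and monocytes, had 0.47 on the diet (adjusted p = 0.107) and 0.62 between fasted and control (adjusted p = 0.0619), with no overlap in either. Ptprc, the leukocyte common antigen, had -0.063, -0.66 and -0.72 in the 3 comparisons (adjusted p = 0.919, 0.338 and 0.201). The mean ratio of the 2 filled on all arrays was -0.075 to 0.49 on control, 0.17 to 0.315 on high-fat and 0.295 to 0.445 on fasted arrays. Of 15 endothelial genes 2 could be tested, and Kdr, the main receptor of vascular endothelial growth factor, rose by 0.90 between fasted and control (adjusted p = 0.0181, and 0.0507 with scaled arrays), from -0.08 to 0.42 on control to 0.97 to 1.22 on fasted arrays, and was at 0.48 to 0.75 on high-fat arrays. Tie1, an endothelial receptor kinase and the other gene tested, had -0.22 on the diet, 0.12 with the fast and -0.093 between fasted and control (adjusted p = 0.733, 0.897 and 0.892). The medians of this pair were 0.093, 0.31 and 0.40. Of 15 stellate cell and fibroblast genes 5 could be tested and by limma none passed (2, 0 and 2 at an unadjusted p under 0.05), with medians of 0.23, -0.11 and 0.225. On the diet 3 of these were higher and 2 lower. Pdgfrb had 0.52 (adjusted p = 0.0806, no overlap) and Col1a2 0.56 (adjusted p = 0.0810), and 0.29 and 0.48 with scaled arrays. The 1 bile duct gene tested (Sox9), the 2 adipocyte genes (Lipe and Retn) and the 3 pancreas genes (Cela3b, Ctrb1 and Gcg) were not called, and no red cell gene could be tested. The part of these cell types in the members' values was not tested.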

How the data were processed

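The authors deposited 1 log2 ratio per spot and array, liver RNA labelled with Cy5 over Universal Mouse Reference RNA labelled with Cy3, per the labels. The base of the logarithm is not stated and was taken as 2. How arrays were normalised, how background was corrected, which scanner was used and why some spots are empty is not given in the sources used here. Without intensities, how far a spot stood above background is unknown, and precision is limited by the number of arrays. Gene symbols come from the platform's table: 14718 spots carry 1 symbol, 1 several and 2561 none.

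Each array was centred on its median, spots of one symbol were averaged, and each gene with 2 or more filled arrays in all 3 groups entered a limma fit (version 3.58.1, R 4.3.3) of the group means, with two-sided tests. Benjamini-Hochberg adjustment ran over the 3558 genes, and a gene was called under 0.05. Of these genes 2262 were filled on all 10 arrays, and the fit uses the values present and imputes none. The scaled setting divides each centred array by its median absolute deviation (given here without a constant) and restores a common one. The limma step was tested on simulated data with the same missing values, and centring and scaling were not tested in this way. High-fat array 4 was left out, as its values did not follow those of the other arrays.

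Named are the 7 members, per gene group each called gene, and per fully filled member the 3 genes with the highest correlation. The uncalled genes named per group are a choice, mostly from the 3 with the smallest p per comparison. The members, the gene groups and these rules were chosen with earlier results of these data known, so their counts are descriptions. Promoter sequence and motif shares come from RefSeq windows on GRCm38.p6; 4 members have a window used here. Alternatives were other normalisations and filters, array weights, the replicate number as a block, all 11 arrays, the 2 groups alone and each array left out in turn.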

Additional observations from a re-analysis of the deposited data

How the results depend on the processing

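Over 20 settings fixed with the design, Serpina5 was called between high-fat and control in 17 and between fasted and high-fat in 10, and Ttr between fasted and control in 15, always in the same direction. With arrays scaled to one spread the diet change was 0.28 for Alb, 0.32 for Ttr and 0.42 for Trf, with a carrier median of 0.32, and with quantile normalisation Ttr had 0.060 and the median was -0.074. With the fast the carrier median was -1.01 with scaled arrays and -0.54 with quantile normalisation, and Trf had -0.85 and -0.43. Trf had -0.092 with scaled arrays and without high-fat array 1, and with 1 array left out it ran from -0.035, without high-fat array 2, to 0.365. Alb with the fast had 0.12 with values as deposited, 0.46 with all 11 arrays, 0.047 and 0.097 without fasted arrays 1 and 2, and 0.20 without high-fat array 1. Serpina5 between fasted and control had 0.11 with values as deposited, 0.0020 with array weights, 0.013 without control array 3 and 0.015 without fasted array 3. The cause of these turns was not tested beyond the values of high-fat array 1.

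The count of 175 genes (105 higher, 70 lower) called between high-fat and control was 86 (35, 51) with values as deposited, 25 (9, 16) with only the 2 groups, and 22 to 190 with 1 array left out. The split was 101 and 24 with scaled arrays, 137 and 22 with quantile normalisation and 55 and 82 when centred on the spots filled on all 10 arrays. The 13 genes (3, 10) called between fasted and high-fat became 24 (3, 21) with quantile normalisation, 7 (3, 4) where all 10 arrays had to be filled, 3 (0, 3) with all 11 arrays, 130 (39, 91) with array weights, 49 (17, 32) with only the 2 groups, and 3 to 23 with 1 array left out. The split was 0 and 15 with scaled arrays and 11 and 5 with values as deposited. The 114 genes (77, 37) called between fasted and control became 10 (8, 2) with scaled arrays, 52 with these and without high-fat array 1, 198 (180, 18) with values as deposited, 25 (17, 8) with all 11 arrays, 238 (146, 92) with array weights, 47 (35, 12) with only the 2 groups, and 5 to 157 with 1 array left out. The split was 69 and 11 with quantile normalisation and 39 and 52 when centred on the spots filled on all 10. Values as deposited moved the median of all genes to 0.065, 0.16 and 0.21 in the 3 comparisons, from 0.079, -0.047 and 0.015.

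Of the 7 members, 1 was called in each comparison. For high-fat and control the number was 0 with only the 2 groups and 0 to 3 with 1 array left out, for fasted and high-fat 0 with values as deposited, 0 with all 11 arrays and 0 to 1 with 1 array left out, and for fasted and control 0 with scaled arrays, 0 with quantile normalisation, 0 with all 11 arrays and 0 to 2 with 1 array left out. With 1 array left out the carrier median ran from -0.92 to -0.45, from -0.40 to 0.20 and from -1.09 to -0.59 in the 3 comparisons.

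Arrays of one number in different groups share only that number: their deviations from the group means correlated with r of -0.17 to 0.15, and an array correlated best with its own number in 8 of 18 cases. With the number as a replicate block 118, 4 (1, 3) and 112 genes were called in the 3 comparisons, with 2, 0 and 1 of the members: Crp at -0.99 (adjusted p = 0.0489) beside Serpina5 for the diet, 0 for the fast, where Serpina5 had an adjusted p of 0.100, and Ttr between fasted and control. Subtraction of neighbouring spots was not run, for want of the spots' positions. With 3 or 4 arrays a group and unknown signal, a change that missed the threshold is not shown to be absent.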
